A study of Mus musculus with 9 samples.

Results

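The 3 control libraries of a mouse uterus study are described here on their own: luminal epithelium of Wnt7acre females on pregnancy day 4. They are the 3 of 9 libraries whose label gives the genotype as Wnt7acre, and all 15158 gene symbols of the deposited table were kept. No test against the other genotypes was made. Their libraries enter only the estimate of depth and the description of sequencing runs at the end. The study collected uterine luminal epithelium by laser capture, in which the cells of interest are cut out of a tissue section under a microscope. Its other 6 libraries came from ePRAoe and ePRBoe mice, which carry Wnt7acre together with a PgrALsL/+ or a PgrBLsL/+ allele (3 libraries each) to overexpress an isoform of the progesterone receptor. All females had been housed with female littermates on normal chow to the age of 8 weeks and then mated with stud males, per the labels. The control mice carry the cre recombinase too, under a name taken from Wnt7a, so they are not wild type. The labels number the biological replicates without naming animals, so the spread between libraries is given here as a description and no test was possible within 1 group.

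The luminal epithelium is the single sheet of cells that lines the uterine cavity and that an embryo meets first. Early in mouse pregnancy, progesterone from the ovary acts on this tissue, with a brief rise of estrogen before attachment, and the epithelium stops dividing, resorbs fluid from the cavity and becomes receptive. Its secretions (calcium-binding proteins, protease inhibitors, antimicrobial proteins) and its tight junctions set the conditions for attachment. Progesterone receptor (Pgr) and estrogen receptor (Esr1) are both transcription factors of this tissue.

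Values are FPKM, a level per kilobase and per depth of sequencing, so that genes may be compared with each other. The FPKM of a library summed to 303005, 311557 and 289902 in replicates 1, 2 and 3. At least 1 FPKM was reached by 11448, 11385 and 11499 genes, and 10697 genes (70.6%) reached it in all 3 libraries. No read counts came with the table. Low values taken over all 9 libraries of the study fell on steps that imply a median of 11.7 M reads a library (quartiles 8.73 and 13.1 over 392 genes). A gene 2 kb long then had some 23.4 reads per FPKM, and 117 reads at 5 FPKM, a counting error of 9.24%. That depth is an estimate, and no interval was taken from it. Across genes, log2(FPKM + 1) correlated between libraries with Pearson's r of 0.949 for replicates 1 and 2, 0.971 for 1 and 3 and 0.971 for 2 and 3, as a description over 15158 genes that share annotation and length.

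Replicate 2 held transcripts of heart muscle and replicate 1 held transcripts of stratified squamous epithelium and neutrophils, each list summing to 17.0, 14.0 and 2.11 FPKM or less in the other control libraries. No 2 control libraries shared a sequencing run, by the run names in the labels, so a run and an animal cannot be told apart within the group.

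The captured tissue carried the markers of luminal epithelium. All 24 listed markers were at 1 FPKM or more in every library, and their FPKM summed to 3533, 3556 and 3250. Cldn3, a tight junction claudin, stood at 496, 463 and 400 FPKM. Krt18, a keratin of simple epithelia, stood at 386, 360 and 326 FPKM. The 3 libraries lay close together for both genes, but not for every marker. Of the 24 markers, 7 differed 2-fold or more between the highest and lowest library, beside 12.0% of all genes with a mean of 5 FPKM or more. Calb1, Wnt7b and Lpar3, described below, are on this list too. Epcam and Cdh1, adhesion proteins of epithelial cells, averaged 227 ± 27.1 and 216 ± 11.3 FPKM (SD, n = 3). Wnt7a, the Wnt ligand of this epithelium after which the cre line is named, was at 66.1, 63.4 and 40.9 FPKM. Every other cell type list summed to 627 FPKM or less in each library.

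Markers of stroma, endothelium and smooth muscle were present at low levels, and those of immune cells at higher levels. Of 20 stromal markers, 16 were at 1 FPKM or more in every library, with a sum of 143, 176 and 187 FPKM. Mgp, a matrix protein, led them at 38.3 ± 6.1 FPKM (SD, n = 3), while Hand2, a stromal transcription factor, averaged 3.50 FPKM. The 10 endothelial markers summed to 18.0, 13.2 and 20.6 FPKM, the 8 smooth muscle markers to 11.7, 21.5 and 21.2 FPKM. In bulk samples of this kind, fewer cells of a type and less RNA per cell cannot be told apart. The 16 immune markers in the table summed to 424, 242 and 205 FPKM and were highest in replicate 1. Lyz2, the lysozyme of myeloid cells, stood at 154, 24.8 and 46.9 FPKM. Tyrobp and Fcer1g, adaptor proteins of myeloid and natural killer cells, averaged 53.0 and 35.0 FPKM.

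Glandular epithelium lies just beneath the luminal layer. Its 11 markers in the table summed to 627, 202 and 617 FPKM, and most of that sum was 1 gene. Fxyd4, a regulator of the sodium pump, stood at 583, 154 and 598 FPKM. The defining gland factor Foxa2 was at 1.22, 0.224 and 0.064 FPKM. Cxcl15, a chemokine secreted by glands, was at 8.47 FPKM in replicate 1, at 0.036 in replicate 2 and at 0 in replicate 3. Lif, the gland cytokine needed for attachment and named after its values were seen, stayed at 0.333 FPKM or less. Foxa2 and Cxcl15 were thus at or near 0 in replicates 2 and 3, while Spink1, a trypsin inhibitor on the same list, stood at 24.1, 41.2 and 14.8 FPKM. Embryo markers were at the floor as well: Nanog was at 0 in all 3 libraries, and the 5 genes of that list in the table summed to 3.30, 2.77 and 3.11 FPKM.

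**Figure D1:**
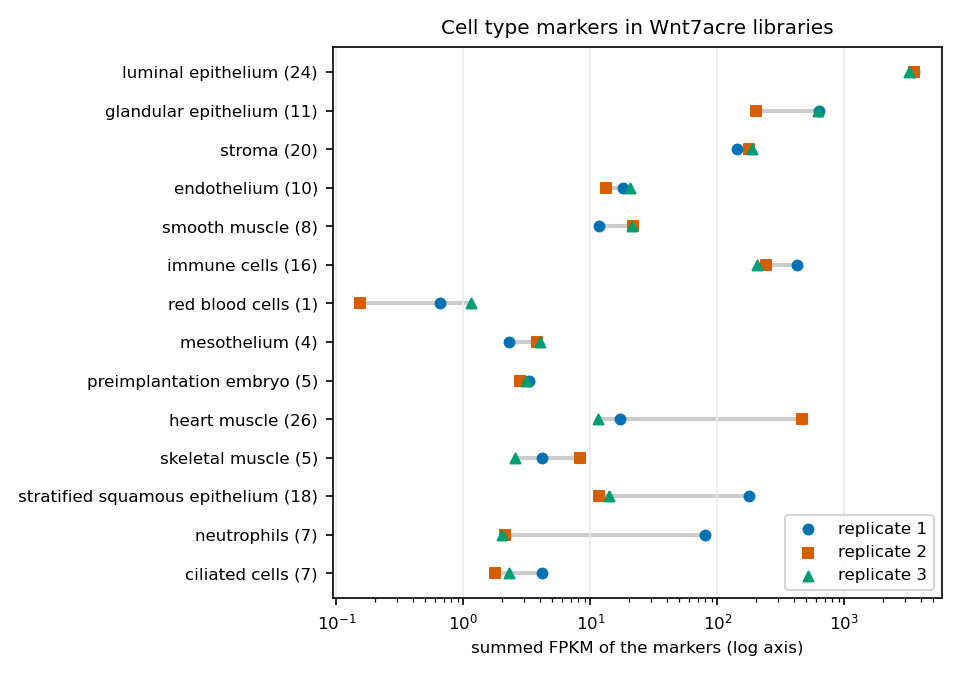
Summed FPKM of each cell type marker list (log axis) in the 3 Wnt7acre libraries, 1 symbol per replicate, with the number of markers in the table in brackets and a grey line from the lowest to the highest library. The luminal sum lies between 3250 and 3556 in every library, while the heart list is high in replicate 2 alone (465) and the squamous and neutrophil lists in replicate 1 alone (176 and 80.1).

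The transcript with the highest mean in control luminal epithelium was S100g (calbindin-D9k), a calcium-binding protein of transporting epithelia, at chrX:162961992-162964599 on the minus strand (mm10). It stood at 2068, 2854 and 2459 FPKM, a mean of 2460 ± 393 FPKM (SD, n = 3). It alone took 0.816% of all FPKM, and it ranked first in replicates 2 and 3, while Ctsd stood above it in replicate 1. Ifitm3, a membrane protein that blocks virus entry, followed at 1508, 1597 and 1674 FPKM. Ctsd, the lysosomal protease cathepsin D, stood at 2226, 946 and 1513 FPKM. Prap1, a secreted proline-rich acidic protein known from uterus and gut, stood at 584, 1961 and 2032 FPKM. S100g and Ifitm3 varied little between libraries, whereas Ctsd was 2.35-fold and Prap1 3.48-fold higher in the highest library than in the lowest.

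Only 7 genes averaged 1000 FPKM or more. Besides those named they were Wfdc2, a secreted whey acidic protein domain protease inhibitor (1162 ± 102 FPKM, SD, n = 3), the elongation factor Eef1a1 (1005 ± 128) and Rn45s, the precursor of ribosomal RNA (1002 ± 334). Rn45s codes for no protein and its repeats lie in many copies in the genome, so its level is uncertain. Igfbp3, a secreted binding protein of insulin-like growth factors, came next at 425, 1428 and 1017 FPKM. Replicate 1 lay well below the others for Igfbp3, as it did for Prap1.

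Several of the next genes belong to secretion, defence and steroid-related chemistry. B2m, the light chain of class I antigen-presenting molecules, stood at 1014, 540 and 953 FPKM. Gstm1, a glutathione transferase, stood at 988, 427 and 1026 FPKM, with replicate 2 lowest for both. Reads of Gstm1, of the Ifitm genes and of ribosomal protein genes may be shared with near-identical copies, so their levels are uncertain. Cyp26a1, the retinoic acid hydroxylase known as a progesterone-induced gene of this epithelium, stood at 516, 701 and 610 FPKM. Atp6v0d2, a subunit of the proton pump, stood at 367, 659 and 563 FPKM. Slc39a4, a zinc importer, averaged 436 FPKM with an SD of 13.9 (n = 3), a narrow spread for so abundant a gene.

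The order of the most abundant genes differed between libraries, as for Ctsd and Prap1, but most of the same genes were among them. Of the 50 genes with the highest mean, 46 were among the 100 most abundant of each library, and 16 of the 50 encode ribosomal proteins. The 50 most abundant genes of a library held 11.2%, 11.7% and 11.7% of its FPKM. To reach 50% of the FPKM took 928, 897 and 937 genes. The transcriptome was thus spread over many genes, with 501 genes at a mean of 100 FPKM or more. Protein-coding genes held 97.4% of the FPKM, and no mitochondrially encoded gene was in the table.

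**Figure D2:**
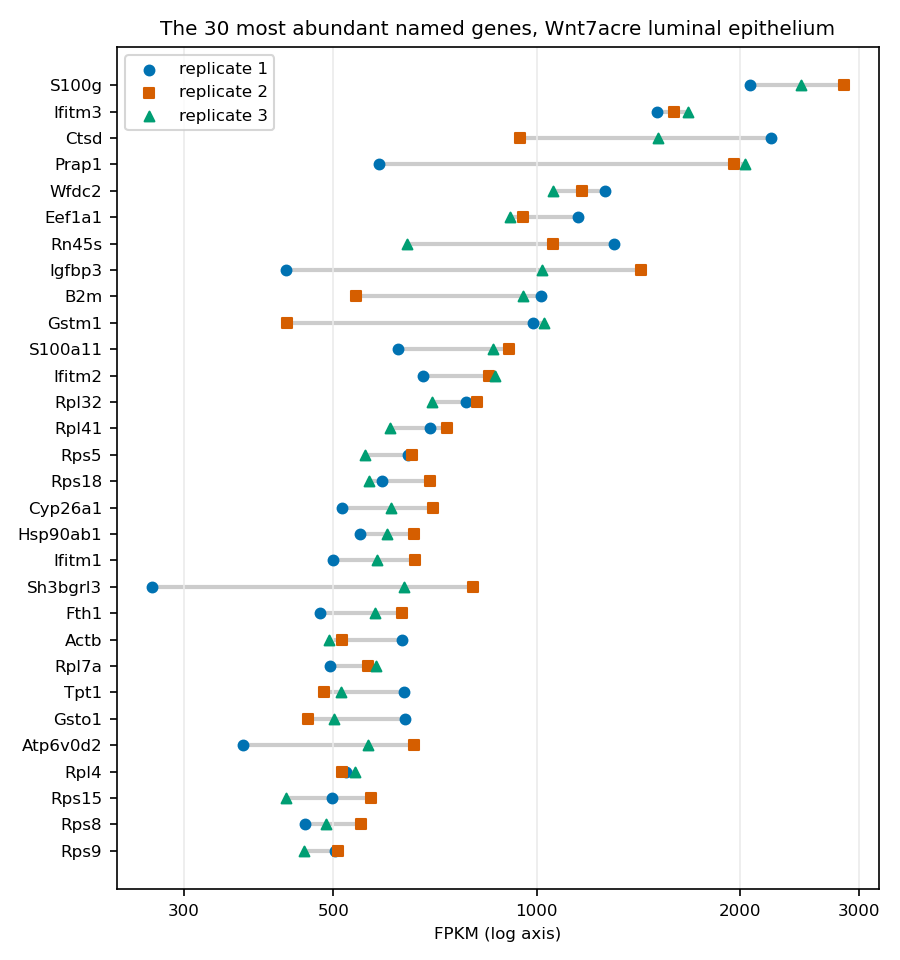
FPKM (log axis) of the 30 named genes with the highest mean in the Wnt7acre libraries, 1 symbol per replicate, with a grey line from the lowest to the highest library. Ribosomal protein genes such as Rpl4 (523, 516 and 538) lie close together, whereas Prap1, Igfbp3 and Sh3bgrl3 are lowest in replicate 1 and Gstm1 is lowest in replicate 2.

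To describe what the transcriptome is made of, each gene was put by its symbol into 1 of 28 classes or among all other genes. The remainder was the largest set, with 10950 genes and 57.8% of the FPKM. Ribosomal proteins were the largest class at 7.69% ± 0.427 (SD, n = 3), from 85 genes with a median of 239.8 FPKM. Enzymes of redox, xenobiotic and steroid metabolism held 3.06% and nuclear genes of oxidative phosphorylation 2.58%. Cytoskeleton genes held 2.20%, chaperones 2.08%, translation factors 2.00% and splicing and RNA-binding genes 1.78%. Proteasome and ubiquitin genes followed at 1.72%. Most of these classes do housekeeping work in any cell, but the redox, xenobiotic and steroid class also holds Cyp26a1 and Gpx3, which are not housekeeping genes.

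Other classes are tied to the work of an absorbing and secreting surface. Solute carriers, the membrane transporters of ions, sugars and amino acids, held 1.67% over 275 genes. Slc39a4 led them, followed by the glutamate and cysteine transporter Slc1a1 (297 ± 77.9 FPKM, SD, n = 3) and the taurine transporter Slc6a6 (201 ± 34.7). Channels, pumps, aquaporins and carbonic anhydrases held 1.58%, with Atp6v0d2 and Fxyd4 at the top. S100 proteins and annexins held 1.41%, of which S100g made up 57.8%. Protease inhibitors held 0.953%, of which Wfdc2 made up 40.4%. Proteases held 1.47%, of which Ctsd made up 35.4%. The leading gene of each of these 3 classes thus held 35.4% or more of it.

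Interferon-induced genes held 1.61% of the FPKM. Ifitm3 made up 32.8% of that class, and Ifitm2 (798 ± 104 FPKM, SD, n = 3) and Ifitm1 (580 ± 79.9) were next. Antigen presentation genes held 0.516%, with B2m at 53.9% of the class. Growth factors, cytokines and chemokines held 0.879%, and Igfbp3 made up 36.1% of it. Cell junction genes held 0.953%, mucins and glycosyltransferases 0.446%, and keratins 0.265%. Among transcription factors (1.58%), Tfcp2l1, a grainyhead-like factor of ductal epithelia, averaged 224 ± 29.4 FPKM and Xbp1, the factor of the secretory stress response, 214 ± 72.2 FPKM (SD, n = 3). Both stood well above the steroid receptors.

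Shares by class hardly moved between libraries for the large classes. Ribosomal proteins held 7.41%, 8.18% and 7.47% of the FPKM. The widest ratio between libraries among classes named here was that of antigen presentation, at 0.618%, 0.389% and 0.541% (1.59-fold). Keratins held 0.318%, 0.215% and 0.262%. Replicate 1 was highest and replicate 2 lowest for both, and part of the keratin FPKM of replicate 1 was that of squamous keratins (Krt13 at 34.0 and Krt5 at 24.0 FPKM). Without the markers of heart, squamous epithelium and neutrophils, keratins held 0.253% and cytoskeleton genes 2.18%.

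**Figure D3:**
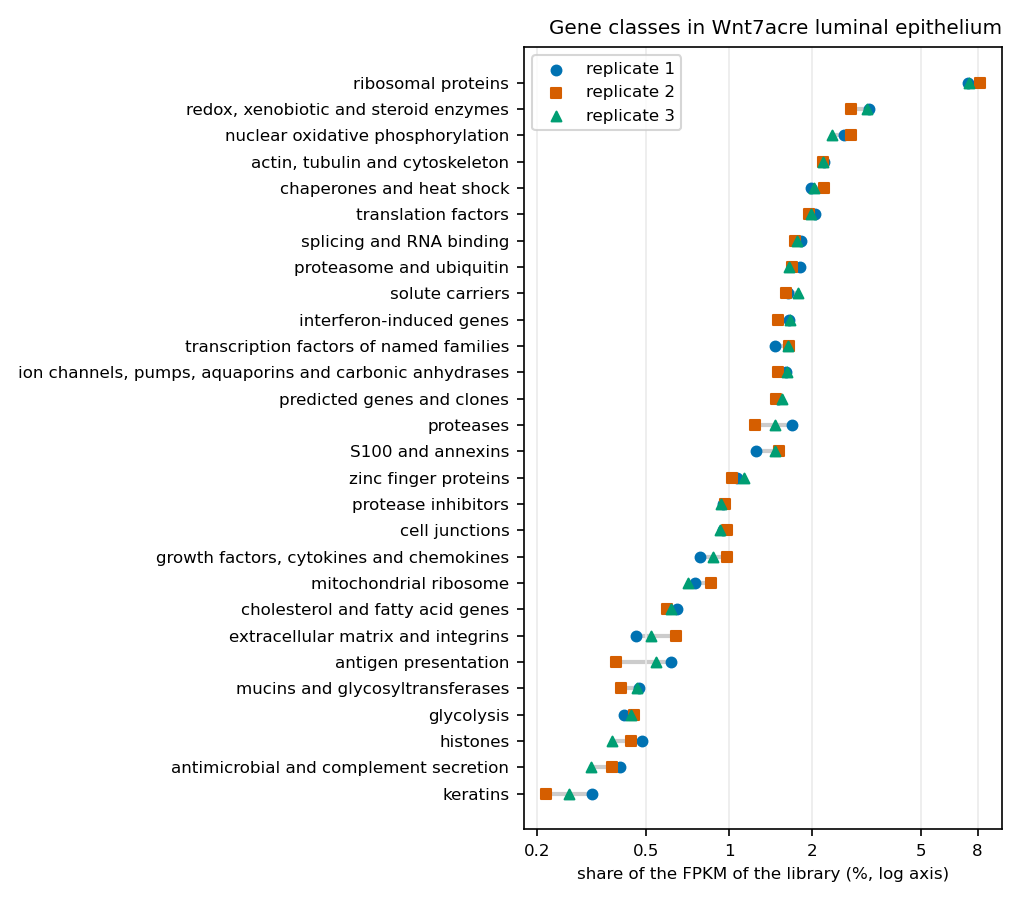
Share of the FPKM of each Wnt7acre library (%, log axis) held by each symbol-defined gene class, 1 symbol per replicate, without the remaining genes (57.8%). Ribosomal proteins lead in every library with 7.41% to 8.18%, and antigen presentation and keratins show wide gaps between replicates 1 and 2.

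Esr1 stood above Pgr, and progesterone-response genes were abundant beside a low level of Pgr. Esr1 stood at 39.4, 42.3 and 42.7 FPKM. Pgr stood at 17.4, 3.82 and 6.62 FPKM, 4.56-fold apart between replicates 1 and 2. Nr3c1, the glucocorticoid receptor, averaged 1.91 FPKM. Esr1 was thus even across libraries, and Pgr was lower than Esr1 in all 3. The membrane-associated Pgrmc1 averaged 65.3 FPKM, and Fkbp4, a co-chaperone of steroid receptors, 315 ± 35.3 FPKM (SD, n = 3). Pgr and Nr3c1 were named after their values were seen.

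The 22 progesterone-response genes, of which 19 reached 1 FPKM in every library, summed to 2559, 1880 and 1953 FPKM. Cyp26a1 led them. Hdc, the histamine-forming enzyme, stood at 467, 207 and 325 FPKM. Alox15, a lipoxygenase, stood at 473, 141 and 207 FPKM. Ihh, the hedgehog ligand that signals to the stroma, stood at 46.7, 29.7 and 24.9 FPKM. Of the 17 members with a mean of 5 FPKM or more, replicate 1 was highest in 10, where it was highest in 39.3% of all 8296 such genes. It was lowest in 4 of the 17, among them Cyp26a1. Calca (calcitonin) was at 0 in all 3 libraries. Areg, an epidermal growth factor family ligand, stood at 30.8, 8.32 and 4.76 FPKM, and Lrp2, the endocytic receptor megalin, at 197, 48.4 and 64.6 FPKM. Both were highest in replicate 1, as Pgr was, and both were named after their values were seen.

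Genes known to rise with estrogen in this epithelium were highest in different libraries. C3, the complement component, stood at 139, 215 and 175 FPKM, and Lcn2, a secreted protein that binds siderophores, at 121, 103 and 44.8 FPKM. Wnt7b, a Wnt ligand, stood at 44.6, 178 and 102 FPKM and Myc at 44.5, 167 and 94.1 FPKM. Ltf (lactoferrin), named after its values were seen, stood at 106, 10.3 and 30.7 FPKM. Wnt7b and Myc were lowest in replicate 1, and Ltf was highest there. Proliferation genes were at low levels, and Mki67, the classical marker (named after its values were seen), averaged 5.73 FPKM. The 25 cell cycle genes summed to 207, 199 and 169 FPKM, led by Pcna (52.2 ± 7.22 FPKM, SD, n = 3), the clamp of DNA replication.

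Among 24 receptivity and attachment genes, 21 reached 1 FPKM in every library. Klf5, a transcription factor, averaged 138 ± 12.8 FPKM and Stat3, the effector of Lif signalling, 114 ± 15.4 FPKM (SD, n = 3). The Lif receptor Lifr averaged 72.6 ± 11.6 FPKM (SD, n = 3), so receptor and effector were present while Lif itself was close to 0. Spp1 (osteopontin) stood at 31.8, 137 and 83.7 FPKM. Lpar3, the lysophosphatidic acid receptor of embryo spacing, stood at 95.6, 28.0 and 58.7 FPKM. Spp1 was lowest and Lpar3 highest in replicate 1, and replicate 3 was between the others for both. Msx1, a homeobox factor, averaged 10.4 FPKM. Lifr, Lpar3 and Msx1 were named after their values were seen.

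Of the 22 ion and water transport genes in the table, 17 reached 1 FPKM in every library. They summed to 2217, 1473 and 1976 FPKM. The sodium pump subunit Atp1b1 averaged 334 ± 47.8 FPKM (SD, n = 3). Scnn1a, a subunit of the epithelial sodium channel, averaged 11.3 FPKM and the chloride channel Cftr 4.29 FPKM. Glutathione and peroxide genes were abundant, with 25 of 26 at 1 FPKM or more in every library and a sum of 4721, 3583 and 4226 FPKM. Scnn1a and Cftr were named after their values were seen.

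The spread between the 3 control libraries holds differences of animal and run together, and the heart, squamous and neutrophil transcripts as well. It was taken as the range, the highest minus the lowest log2(FPKM + 1), for the 8296 genes with a mean of 5 FPKM or more. The median range was 0.42, which is 1.34-fold, and the 90th percentile was 1.10. A range of 2-fold or more was seen for 995 genes (12.0%), of 4-fold for 190 and of 8-fold for 50. The share of 2-fold genes was 13.9% at a mean of 5 to 10 FPKM, 10.1% at 10 to 20 and 18.0% at 100 or more. The most abundant genes thus held the highest share of variable ones.

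The lowest median ranges were those of translation factors (0.33), proteasome and ubiquitin genes (0.34) and ribosomal proteins (0.36). Splicing and RNA-binding genes followed at 0.37. Not every housekeeping class was steady. Cytoskeleton genes had 0.43, nuclear genes of oxidative phosphorylation 0.44 and chaperones 0.44, beside 0.42 for all genes. Pdzk1ip1, a small membrane protein, gave 187, 187 and 189 FPKM, and the chaperonin subunit Cct2 gave 108, 109 and 108 FPKM. These were among the 10 steadiest genes with a mean of 50 FPKM or more, together with Psma7, Magoh, Ep300, Tbl1x, Uba1, Ube2l3, Rnf4 and Emc7. Their ranges were all at or below 0.04.

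Classes of secreted and immune genes are described next by their members with a mean of 5 FPKM or more. Antimicrobial and complement genes had a median range of 1.30, with 10 of 16 past 2-fold, and protease inhibitors 1.14 and 13 of 22. Growth factors and cytokines had 1.03 and 21 of 40, and interferon-induced genes 0.91 and 22 of 45. Of all genes with that mean, 12.0% were past 2-fold. Antigen presentation genes had a median range of 0.72, and only 1 of 14 (7.14%) was past 2-fold. A member can pass that mean through 1 library alone, as the keratins Krt13 and Krt5 did in replicate 1, so these values describe the members that passed and do not rank the classes.

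**Figure D4:**
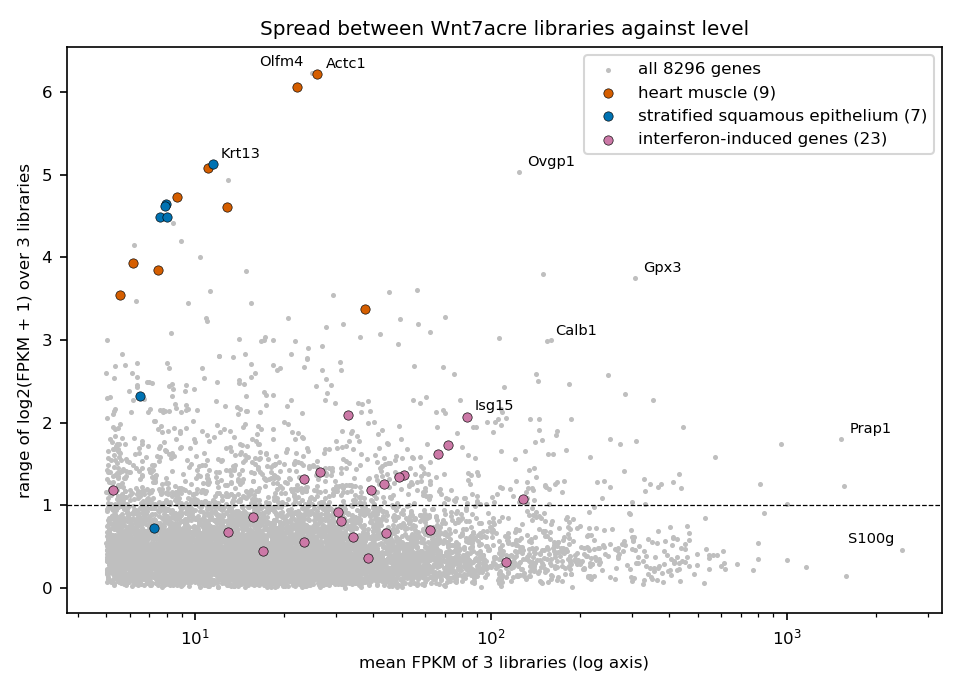
Range of log2(FPKM + 1) over the 3 Wnt7acre libraries against mean FPKM (log axis) for 8296 genes with a mean of 5 FPKM or more, with members of 3 lists in colour and the dashed line at a 2-fold range. Heart and squamous genes that reached this mean lie high at a low mean level, and abundant genes such as Prap1, Gpx3 and Calb1 also lie above the line.

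The libraries did not vary evenly. A library was said to stand apart for a gene where its log2(FPKM + 1) was at least 1 (2-fold) above, or below, both others. Replicate 1 stood apart upward for 110 genes (1.33%) and downward for 144 (1.74%). Replicate 2 did so for 70 (0.844%) and 149 (1.80%), and replicate 3 for 16 (0.193%) and 19 (0.229%). With libraries scaled to equal sums these were 50 upward and 186 downward for replicate 2, and 19 and 13 for replicate 3. Median-of-ratios scaling gave 18 and 14 for replicate 3. Replicate 3 lay in the middle for 49.5% of the 8296 genes and for 749 (75.3%) of the 995 with a 2-fold range. The order replicate 1, 3, 2 from high to low was seen for 373 of these 995 genes (37.5%) and the order 2, 3, 1 for 376 (37.8%). The spread of the control group was thus mostly a contrast of replicates 1 and 2, and without replicate 1 or without replicate 2 the count of 2-fold genes was 300 or 338, against 860 without replicate 3.

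The contrast upward in replicate 2 was led by heart muscle. Actc1, the cardiac actin at chr2:114047282-114053548 on the minus strand (mm10), stood at 0.052, 77.4 and 0.052 FPKM. Myl2, the ventricular myosin light chain, stood at 0.574, 65.7 and 0 FPKM. Myh6, the atrial myosin heavy chain, stood at 0.013, 26.0 and 0.013 FPKM. These 3 genes were under 1 FPKM in the other control libraries. Mb (myoglobin) was at 0, 32.8 and 0.243 FPKM, and Tnnt2, the cardiac troponin T, at 11.4, 92.9 and 8.08 FPKM. Of 26 heart genes in the table, 24 were at 1 FPKM or more in replicate 2, against 3 in replicate 1 and 1 in replicate 3, with sums of 465, 17.0 and 11.4 FPKM. The 5 skeletal muscle genes in the table summed to 4.18, 8.29 and 2.57 FPKM. The heart list was drawn up after these genes were seen to be high, so it describes the library and tests nothing. How heart transcripts came into this library was not tested.

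A promoter window of Actc1 is shown because this gene marked replicate 2 most. It is the 250 bases before the RefSeq start, 5′ to 3′ on the minus strand, with a match to the CArG box in capitals. The window is at chr2:114052876-114053125 (GRCm38.p6, the patched form of mm10). That lies inside the span of the gene given above, which comes from GENCODE, so RefSeq and GENCODE differ in the start of Actc1.
Actc1: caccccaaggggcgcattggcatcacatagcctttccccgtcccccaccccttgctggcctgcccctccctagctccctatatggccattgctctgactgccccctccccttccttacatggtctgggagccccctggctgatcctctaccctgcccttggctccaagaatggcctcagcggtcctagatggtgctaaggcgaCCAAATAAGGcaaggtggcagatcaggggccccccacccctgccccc
The CArG box is the letter pattern bound by serum response factor in muscle genes. Its match here starts 47 bases before the RefSeq start. In windows of the same length it was found before 3 of 25 heart genes with a RefSeq entry (12%) and before 164 of 11733 genes of the table (1.40%), on either strand. A match describes these letters and is not a bound site.

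The contrast upward in replicate 1 was led by squamous, neutrophil and other genes. Olfm4, a secreted glycoprotein known from crypts and neutrophils, stood at 74.3 FPKM in replicate 1 and was listed at 0 in both others. Krt13 stood at 34.0, 0 and 0.35 FPKM, and Krt5, the basal keratin of layered epithelia, at 24.0, 0 and 0 FPKM. S100a9, a calcium-binding protein of neutrophils, stood at 33.5, 0.145 and 0 FPKM. These genes were under 1 FPKM in replicates 2 and 3. Of the 18 squamous genes in the table, 13 were at 1 FPKM or more in replicate 1, 4 in replicate 2 and 3 in replicate 3, with sums of 176, 11.7 and 14.0 FPKM. The 7 neutrophil genes summed to 80.1, 2.11 and 2.00 FPKM. Both lists were drawn up after these values were seen, and the part of other tissue in them was not tested.

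A list of 26 interferon-induced genes, which does not hold the abundant Ifitm genes, had its highest sum in replicate 1. The wider symbol class held 1.65%, 1.51% and 1.67% of the FPKM in replicates 1, 2 and 3, and its leading members Ifitm3, Ifitm2 (678, 850 and 867 FPKM) and Ifitm1 (499, 659 and 581 FPKM) were lowest in replicate 1. Isg15, a ubiquitin-like protein made in response to type I interferon, stood at 165, 38.3 and 45.7 FPKM. Oasl2, an oligoadenylate synthetase-like protein, stood at 173, 81.4 and 130 FPKM, and Ddx58 (the RNA sensor RIG-I) at 121, 35.9 and 57.7 FPKM. Replicate 1 was highest for these 3, and Bst2 (tetherin) was level at 119, 121 and 97.2 FPKM. All 26 listed genes were at 1 FPKM or more in every library, and their sums were 1413, 826 and 914 FPKM. Of the 23 with a mean of 5 FPKM or more, 17 had the order replicate 1, 3, 2, which 23.4% of all 8296 genes had. The neutrophil list summed to 80.1 FPKM and the immune list to 424 FPKM in the same library, and their part in the interferon values was not tested.

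Ifit genes, which encode RNA-binding proteins of the interferon response, did not share 1 order of libraries. Ifit1 stood at 110, 35.1 and 53.7 FPKM. Ifit1bl1 stood at 11.3, 51.3 and 35.9 FPKM, and Ifit3b at 24.5, 56.9 and 36.8 FPKM. Ifit1 was highest and the others lowest in replicate 1, and Ifit3 (35.4, 56.9 and 40.1 FPKM) had the order of Ifit3b. Ifit3 and Ifit3b are near-identical copies, so the split of reads between them is uncertain. These 4 genes were named after their values were seen. Each of 3 scalings of the libraries (equal sums, median-of-ratios, quantile), added after the values were seen, gave 18 in place of 17 genes in the order 1, 3, 2.

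The promoters of Isg15 and Ifit1 are shown because these genes were high together in replicate 1 and carry the element known for this response. Each is the 250 bases before the RefSeq start, 5′ to 3′ on the strand of the gene (GRCm38.p6). Isg15 lies on the minus strand at chr4:156200819-156201068 and Ifit1 on the plus strand at chr19:34640639-34640888. Capitals mark matches to the interferon-stimulated response element, searched as GAAANNGAAA on both strands with overlaps allowed.
Isg15: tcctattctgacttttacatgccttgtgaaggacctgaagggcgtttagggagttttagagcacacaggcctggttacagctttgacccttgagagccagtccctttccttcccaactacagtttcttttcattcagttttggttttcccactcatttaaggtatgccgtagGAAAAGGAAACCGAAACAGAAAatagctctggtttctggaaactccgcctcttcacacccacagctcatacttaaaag
Ifit1: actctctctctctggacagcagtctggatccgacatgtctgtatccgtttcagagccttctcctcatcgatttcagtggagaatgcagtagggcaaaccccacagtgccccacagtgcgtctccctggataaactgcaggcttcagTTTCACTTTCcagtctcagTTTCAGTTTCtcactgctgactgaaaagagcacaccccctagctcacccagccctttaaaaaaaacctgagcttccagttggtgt
Isg15 holds 3 overlapping matches that start 78, 72 and 66 bases before the RefSeq start, and Ifit1 holds 2 on the other strand, at 104 and 85 bases. Of 18 listed interferon genes with a RefSeq entry, 10 (55.6%) held a match, beside 373 of 11733 genes of the table (3.18%). The list was chosen for this response, and a match is a description of letters.

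Genes outside these lists varied as well, and the largest gaps downward were those of replicates 1 and 2. Gpx3, a secreted glutathione peroxidase, stood at 35.5, 491 and 391 FPKM, so replicate 1 lay 13.8-fold below the highest. Npnt (nephronectin), a matrix ligand of integrins, stood at 4.40, 48.4 and 42.2 FPKM, and Cyfip2, a regulator of actin assembly, at 5.35, 74.9 and 55.5 FPKM. Replicates 2 and 3 lay close together for these genes. Replicate 2 was low for Il17rb, an interleukin receptor subunit (287, 19.8 and 144 FPKM), and for Calb1, the calcium buffer calbindin-D28k (245, 29.98 and 188 FPKM). Stc1, the hormone stanniocalcin, stood at 21.0, 2.46 and 26.5 FPKM, and Slc14a1, a urea transporter, at 8.20, 0.457 and 22.4 FPKM. Replicate 2 was the low library in each.

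Genes of hypoxia and glycolysis had their highest sum in replicate 2. The 21 genes in the table summed to 1539, 2155 and 1883 FPKM. Of the 19 with a mean of 5 FPKM or more, 10 had the order replicate 2, 3, 1, which 26.1% of all genes had, and 5 had a 2-fold range. The median range of the list was 0.40, against 0.42 for all genes. Ndrg1, a stress-induced gene, stood at 133, 460 and 338 FPKM, and Slc2a1, the glucose transporter GLUT1, at 60.6, 193 and 137 FPKM. Slc2a3, the transporter GLUT3, had the reverse pattern at 108, 16.1 and 82.6 FPKM. The glycolytic enzymes Gapdh (332, 440 and 406) and Ldha (223, 188 and 206 FPKM) varied less. Slc2a1 and Slc2a3 were named after their values were seen.

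Replicate 3 stood apart for few genes. Ovgp1 (oviductin), a glycoprotein known from the oviduct, stood at 47.5, 8.73 and 317 FPKM, 36.3-fold between the highest and the lowest library. Fgf1, a growth factor, stood at 5.13, 4.06 and 34.9 FPKM, and F5, coagulation factor V, at 9.08, 17.7 and 65.9 FPKM. The 3 genes were high in the same library. The 7 genes of ciliated cells in the table, which the oviduct also holds, summed to 4.16, 1.77 and 2.29 FPKM. Of these, 5 were under 1 FPKM in every library, so the list lies near the floor. It was drawn up after values were seen, and the part of other tissue in replicate 3 was not tested. Bcl3, a regulator of NF-kappaB, was lowest there at 34.9, 25.1 and 9.20 FPKM. Snord43 and Snord52, small nucleolar RNA genes inside other genes, were at 0 in 1 library each, which for Snord52 was not replicate 3. Short genes of this kind rest on few reads.

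**Figure D5:**
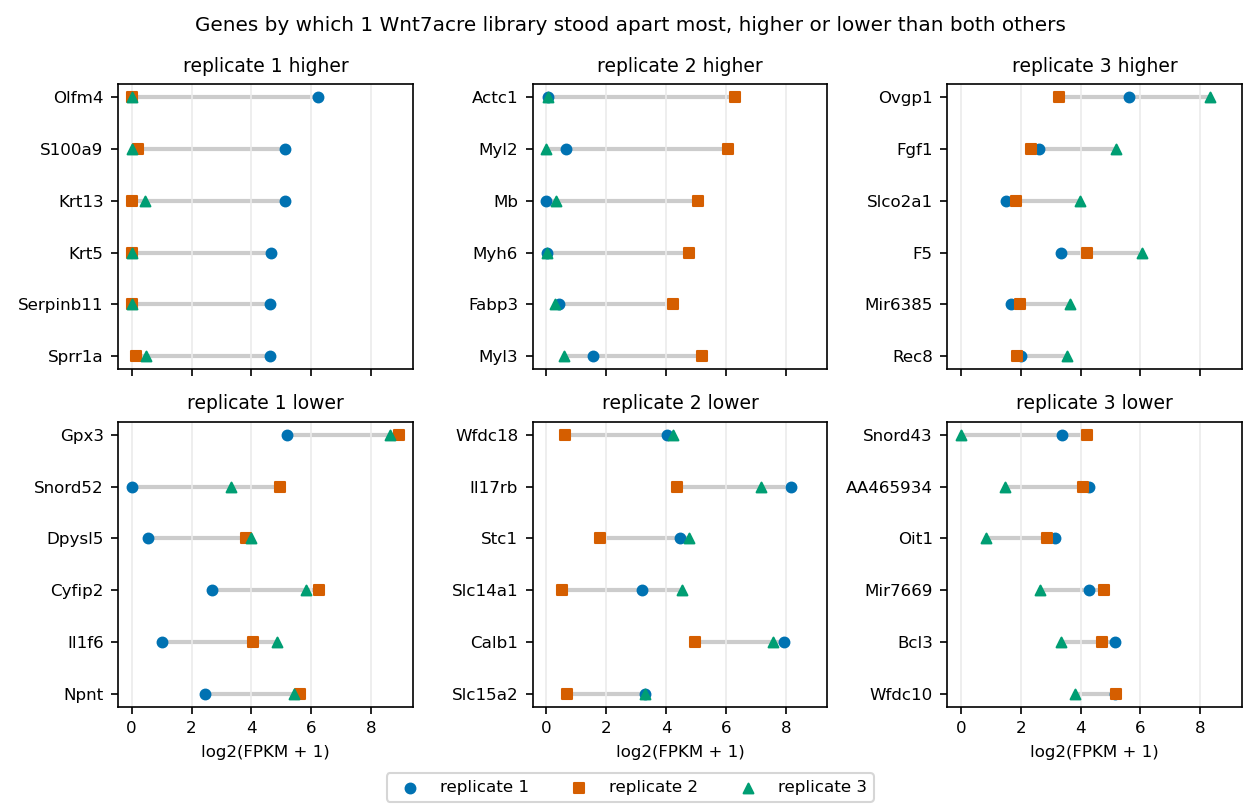
Values of log2(FPKM + 1) in the 3 Wnt7acre libraries for the named genes by which each library stood apart most, upward (top row) and downward (bottom row), with a grey line from the lowest to the highest library. Heart genes mark replicate 2, squamous and neutrophil genes replicate 1 and Ovgp1 replicate 3, and in the bottom row abundant genes such as Gpx3, Il17rb and Calb1 are low in 1 library.

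Each run of a control library also held 1 ePRAoe library, and that of replicate 3 held all 3 ePRBoe libraries as well. For the comparisons by run, the ePRAoe library was set against the other 2 ePRAoe libraries only. Of the 110 genes for which replicate 1 stood apart upward, 33 (30%) also did so in the ePRAoe library of the same run, as 2.88% of all 8296 genes did there. Of the 144 genes low in replicate 1, 17 (11.8%) were low there too, beside 1.82% of all. Of the 149 genes low in replicate 2, 12 (8.05%) were low in its run partner, beside 0.482% of all genes. Of the 70 genes high in replicate 2, 4 (5.71%) were high there, beside 0.916%. For replicate 3 the counts were 0 of 16 genes upward (0.313% of all) and 5 of 19 downward (1.16% of all). These sets were chosen for their spread and all 8296 genes were not, and the part of this choice in the shares was not tested. Over all 8296 genes, the deviation of a control library from the other 2 was also set against that of its run partner. Pearson's r was 0.185, 0.224 and 0.041 for replicates 1, 2 and 3. The heart list summed to 465 FPKM in replicate 2 and to 19.6 FPKM in the ePRAoe library of that run. The squamous and neutrophil lists summed to 18.5 and 4.15 FPKM in the run partner of replicate 1. Some genes of 5 of the 6 sets thus shared their direction with the ePRAoe library of the run, and the lists that led replicates 1 and 2 were lower there. Heart genes were not seen in replicate 2 alone: the list summed to 34.2, 58.9 and 92.7 FPKM in the 3 ePRBoe libraries, all in another run, with 10, 12 and 16 of 26 genes at 1 FPKM or more. Actc1 stood at 3.44, 11.4 and 14.9 FPKM there. Ovgp1, high in control replicate 3, stood at 455 FPKM in 1 ePRBoe library of the same run and at 34.6 FPKM or less in the other ePRAoe and ePRBoe libraries of that run. With 1 control library in each run, run and animal cannot be told apart.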

How the data were processed

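The authors deposited 1 table of FPKM per gene symbol for 9 libraries, per the file headers, of which the 3 Wnt7acre columns gave the results and the other 6 entered only the estimate of depth and the description of sequencing runs. STAR 2.5.2b, featureCounts 1.5.0-p1 (Subread), edgeR 3.28.0, limma 3.42.2 and the build mm10 come from the submitters' processing notes. Which annotation, strand setting and gene lengths gave the FPKM is not given in the sources used here, so genes that overlap or have antisense partners are uncertain. Positions come from GENCODE M21, which held 14972 symbols (98.8%), and promoters from RefSeq (GRCm38.p6).

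Depth was estimated from 860 genes under 0.6 FPKM, of which 47.2% lay on multiples of 1 step (tolerance 0.0006). Values were transformed as log2(FPKM + 1), with folds over 1 FPKM or more. No test was made, since there is 1 group. Spread was taken over genes with a mean of 5 FPKM or more. Genes were put in the first of 28 symbol classes they matched, a few of whose patterns were corrected after values were seen. Named genes are the 30 most abundant, the top 3 of each class and top 4 of each list, the 15 widest ranges, the 6 largest gaps per library and direction and the 10 smallest ranges above 50 FPKM, without predicted genes. Others were named after their values were seen, and a few genes are not reported here. Members and lists (23, with 5 added) were chosen with earlier results of these data known. The count of genes for which 1 library stood apart was checked on simulated data with known changes. Scripts used Python 3.11.15, numpy 2.4.6, pandas 2.3.3 and matplotlib 3.10.9.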

Additional observations from a re-analysis of the deposited data

How the results depend on the processing

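Of 867 alternative values, 758 stayed within the spread or within 1.5 times and 109 moved. Part of the 758 stayed by construction. Leaving out 1 of 3 libraries cannot move a mean or a share past the SD. A common factor per library leaves a share as it was. Equal sums, median-of-ratios and quantile scaling moved no count by more than 1.5 times, for example in genes for which a library stood apart, replicate 3 downward (13, 14 and 15 against 19) and replicate 2 upward (50, 57 and 51 against 70). Leaving out the top gene of a class, by construction, gave cytoskeleton 2.02%, chaperones 1.88%, redox enzymes 2.79% and translation factors 1.67%, and leaving out heart, squamous and neutrophil markers gave cytoskeleton 2.18%. Genes with a 2-fold range numbered 621 at a pseudocount of 5, 1620 at a mean of 1 FPKM, 430 at 20 FPKM, 1765 without a filter and 300 to 860 without 1 replicate.

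Counts of genes for which a library stood apart moved with the pseudocount, the filter and the fold, as those settings admit more or fewer genes. For replicate 1 upward they were 68 at a pseudocount of 5, 198 at a mean of 1 FPKM, 46 at 20 FPKM, 228 without a filter, 385 at 1.5-fold and 37 at 3-fold. For replicate 2 upward they were 34, 131, 21, 145, 469 and 20 in the same order, and for replicate 3 upward 9, 48, 5, 55, 56 and 5. Downward, at a pseudocount of 5, a mean of 20 FPKM, 1.5-fold and 3-fold, they were 73, 65, 384 and 40 for replicate 1 and 81, 66, 422 and 51 for replicate 2. For replicate 3 downward they were 30 at a pseudocount of 0.1, 7 at 5, 31 at 1 FPKM, 7 at 20 FPKM, 31 without a filter, 100 at 1.5-fold and 4 at 3-fold.

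No paired analysis was possible because the results come from 1 group and from no test. The libraries carry no counts, so genes under 5 FPKM and short genes are the least certain. With 3 libraries, each in a run of its own, the spread has no test.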

Other observations

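Several abundant genes belong to mitochondrial, complement and surface functions. Nuclear genes of oxidative phosphorylation were led by Atp5b, a subunit of the ATP synthase, at 351, 374 and 365 FPKM. Cxcl17, a mucosal chemokine, averaged 285 ± 51.4 FPKM and Cd24a, a heavily glycosylated surface protein, 327 ± 39.6 FPKM (SD, n = 3). Serping1, the inhibitor of complement C1, averaged 366 ± 78.8 FPKM. Cd55, which protects cells from complement, averaged 249 ± 34.2 FPKM (SD, n = 3), so a complement component (C3) and inhibitors of the cascade were expressed side by side. Olfm1, a secreted olfactomedin, stood at 130, 636 and 294 FPKM, 4.88-fold between replicates 2 and 1.

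Enzymes of cholesterol synthesis were present at modest levels, with 20 of 21 listed genes at 1 FPKM or more in every library and sums of 250, 242 and 209 FPKM. Dhcr7, a late enzyme of the pathway, stood at 55.3 FPKM in replicate 1 and at most 23.2 FPKM in the others. Lgr5, a receptor of R-spondins known from luminal epithelium, stood at 75.6, 61.5 and 28.5 FPKM, and Axin2, a target of Wnt signalling, averaged 4.73 FPKM. Axin2 was named after its values were seen.

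The remaining lists gave these values. The 16 antigen presentation genes summed to 2030, 1264 and 1638 FPKM, and replicate 1 was highest in 12 of the 13 with a mean of 5 FPKM or more (39.3% of all such genes). The 15 antimicrobial and complement genes in the table summed to 2177, 1802 and 1546 FPKM. The 14 estrogen-induced genes in the table summed to 654, 846 and 597 FPKM and the 22 Wnt pathway genes to 621, 638 and 550 FPKM. The 18 immediate early and stress genes, which rise when tissue is handled, summed to 498, 620 and 521 FPKM and were led by Hspb1, a small heat shock protein (135, 241 and 164 FPKM). The 4 mesothelial genes in the table summed to 2.29, 3.76 and 3.99 FPKM. Of the red blood cell list only Alas2, an enzyme of heme synthesis, was among the symbols, at 1.15 FPKM or less.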
